A study of Mus musculus with 17 samples.

Results

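The 38 genes described here are those that mark reactive astrocytes, out of 55450 genes in the deposited lists. They were chosen by name, but with earlier results of these data known. Each of the 38 symbols matched a single Ensembl identifier, and 36 passed the filter on low counts. Hippocampal expression was measured by RNA-seq in 17 libraries from adult mice. The control sgLacZ group (5 libraries) came, per the study, from sham animals, and the epileptic sgLacZ (6 libraries) and epileptic sgKcna1 groups (6 libraries) from animals given kainic acid into the right amygdala. Kainic acid, a glutamate receptor agonist, sets off status epilepticus and, later, spontaneous seizures. All 3 groups carried AAV9 vectors in the right ventral hippocampus with a nuclease-dead Cas9 fused to an activator (CRISPRa) under a doxycycline-inducible promoter. The transactivator that switches it on was driven by a Camk2a promoter, so the construct was aimed at excitatory neurons and not at astrocytes. Per the study, doxycycline was given in the food before the hippocampi were collected. The guide sgKcna1 binds the promoter of Kcna1, a potassium channel gene, and sgLacZ binds a bacterial gene. Per the study's methods the mice were C57BL/6J of either sex, and the labels give neither strain nor sex.

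Astrocytes answer injury, inflammation and seizures with a change of state called reactivity. They enlarge their intermediate filament skeleton, which is built of GFAP, vimentin and nestin, and they secrete acute-phase and matrix proteins. A main route to this state is the family of interleukin-6-like cytokines: oncostatin M, CNTF and related ligands bind receptors that share the subunit gp130, JAK kinases then activate the transcription factor STAT3, and SOCS3 is made as a brake on the same route. Panels of reactive genes are often split into pan-reactive genes, A1 genes seen after inflammation and A2 genes seen after ischaemia. Of the 38 members, 12 belong to the pan-reactive panel, 5 to A1, 10 to A2 and 11 to none of these.

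Reads in genes ran from 11839240 to 28311328 a library. Expression is given as CPM (counts scaled to a common library size, after TMM scaling), and 3 reads, taken as the floor of detection, equal 0.106 to 0.253 CPM, which covers counting error only. The share of unmapped reads averaged 24.1% ± 3.38 (SD, n = 5) for controls, 18.6% ± 5.01 (SD, n = 6) for epileptic sgLacZ and 25.2% ± 8.15 (SD, n = 6) for epileptic sgKcna1. Kcna1 itself averaged 30.1 ± 14.5 CPM (SD, n = 6) with sgLacZ and 38.2 ± 46.5 (SD, n = 6) with sgKcna1 in epileptic mice, a difference that did not pass the test (adjusted P = 0.706 in edgeR). Replicate 12 of the latter had 132.5 CPM and the other 5 between 13.9 and 29.5, and without it the log2 fold change turned to -0.65 (SE 0.27, adjusted P = 0.293 in edgeR). By qPCR the study found more Kcna1 in hippocampi injected with sgKcna1 than in the opposite ones. In RNA-seq the study saw no clear rise either, which it says may reflect few Kcna1 reads. Several libraries stood apart for the members. Epileptic sgLacZ replicate 4, with 11.0% of reads unmapped, was the lowest of all 17 for 9 members and the highest for 3. Epileptic sgKcna1 replicate 12, the shallowest and with 41.5% of reads unmapped, was the highest of all 17 libraries for 10 of the 36 members tested. Epileptic sgLacZ replicate 5 lay within the range of the controls or above it for the S100 and metallothionein genes. Reads of Xist, from the inactive X chromosome, and of Ddx3y, from the Y chromosome, were both above 1 CPM in 6 of the 17 libraries (2 control, 1 epileptic sgLacZ and 3 epileptic sgKcna1). These 6 are called below the libraries with reads of both sexes. The source of these reads was not tested, so RNA of both sexes and reads mixed between libraries cannot be told apart. Xist was above 10 CPM in 4 of 6 epileptic sgLacZ, 3 of 6 epileptic sgKcna1 and 2 of 5 control libraries.

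Levels of the members in control hippocampus differed widely. Per kilobase of exon the highest level was that of Mt1, a metallothionein that binds zinc and copper, with 770 CPM per kilobase, followed by S100b, a calcium-binding protein of astrocytes and oligodendrocytes, with 194, and Gfap with 73.6. Vim, S100a6, Mt2 and S100a10 lay between 32.2 and 38.8 CPM per kilobase on the unstranded counts, which are used unless stated. Most Mt2 reads were ambiguous in those counts, and its control mean of 18.0 CPM became 277 with both strand counts added. The rank of Mt2, 556 bases long, is therefore uncertain, and it may lie above S100b and Gfap. At the other end, 7 members had a control mean under 1 CPM, namely the cytokine Clcf1, the iron-binding lipocalin Lcn2, the metalloreductase Steap4, the glycosyltransferase B3gnt5, the channel Aqp9, and Tgm1 and Slc10a6. Tgm1, a transglutaminase, had 0 to 14 reads per library and Slc10a6, a transporter, 0 to 6, and both fell below the filter and were not tested. Lcn2, often used as a marker of strong reactivity, had 0 to 44 reads per library, so a change in it was not well measured at this depth.

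The first question was which reactive genes differ in chronically epileptic mice that received the control guide. Of the 36 members tested, 4 were higher in epileptic sgLacZ than in control sgLacZ libraries and none lower: Gfap, Osmr, Socs3 and Aldh1l1 (edgeR quasi-likelihood test, adjusted P under 0.05). This is 11.1% of the members tested, beside 11.0% of all 17615 genes tested that differed in either direction and 7.26% that were higher, so the share in either direction was close to the background. The median log2 fold change was 0.07 over the 36 members and 0.02 over all genes, and 19 members were positive and 17 negative. At an unadjusted P under 0.05 there were 10 members, 6 higher and 4 lower, against 34.7% of all genes. In bulk tissue, fewer cells of a type and less RNA per cell cannot be told apart.

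**Figure D1:**
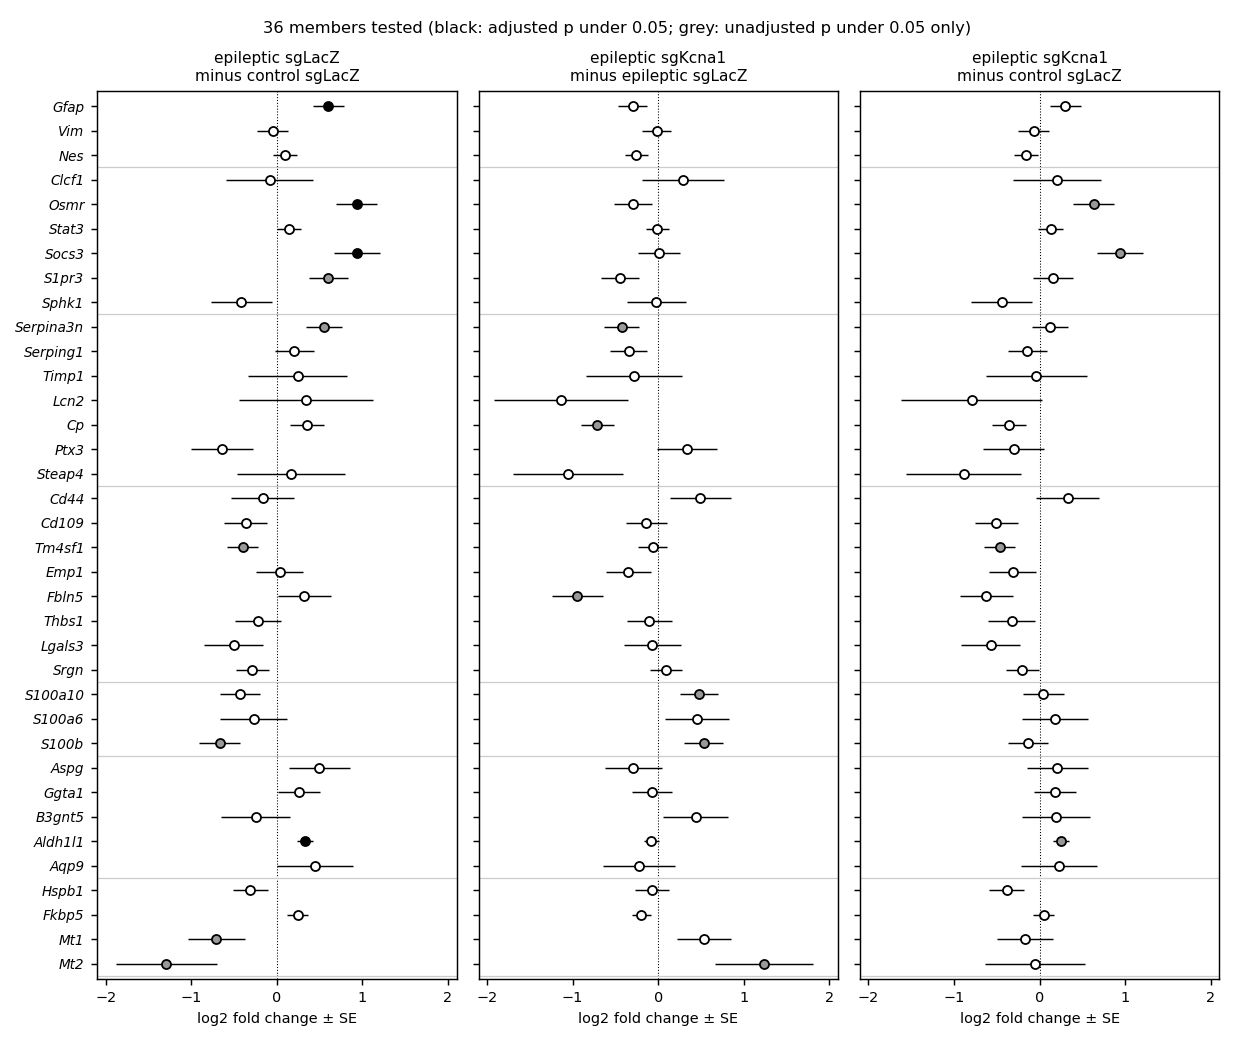
Log2 fold change (x axis) with its SE of the 36 members tested (rows, in the order of their roles, grey lines between roles) for the 3 comparisons. Black points passed an adjusted P of 0.05 in the edgeR fit grey points only an unadjusted one and white points neither; 4 black points lie in the first panel, to the right of 0, and none in the other panels.

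Gfap (ENSMUSG00000020932; chromosome 11, 102887336 to 102897200 in GRCm38.p6), the filament protein by which reactive astrocytes are usually recognized, had 268, 295, 317, 331 and 340.4 CPM in the 5 control libraries. In epileptic sgLacZ libraries it ranged from 327 to 630.5 CPM with a median of 445. Epileptic libraries were higher on the whole, but the lowest of them lay inside the range of the controls. The means were 310.3 ± 29.1 CPM (SD, n = 5) and 469.7 ± 115 (SD, n = 6), a 1.51-fold difference with a log2 fold change of 0.60 (SE 0.18, adjusted P = 0.0447 in edgeR). The other filament genes did not follow it. Vim, vimentin, had 90.7 ± 12.8 CPM (SD, n = 5) in control and 87.6 ± 18.7 (SD, n = 6) in epileptic sgLacZ libraries, and the log2 fold change was -0.05 (SE 0.18, adjusted P = 0.866 in edgeR). For Nes, nestin, the log2 fold change was 0.10 (SE 0.14, adjusted P = 0.652 in edgeR).

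Among the 6 members of cytokine, receptor and STAT signalling, 2 rose. Osmr (ENSMUSG00000022146; chromosome 15, 6813568 to 6874968), the receptor subunit for oncostatin M, had 1.79, 1.96, 2.18, 2.93 and 3.01 CPM in controls. In epileptic sgLacZ libraries it ranged from 3.38 to 5.80 CPM with a median of 4.51, so that all 6 lay above every control. Its means of 2.37 ± 0.56 CPM (SD, n = 5) and 4.54 ± 0.85 (SD, n = 6) were 1.91-fold apart, with a log2 fold change of 0.93 (SE 0.24, adjusted P = 0.0347 in edgeR). Socs3 (ENSMUSG00000053113; chromosome 11, 117966079 to 117970336), the inhibitor of the same route, was a low gene with 15 to 69 reads per library. It had 0.624, 0.884, 1.30, 1.63 and 1.73 CPM in controls and 1.62 to 3.02, with a median of 2.41, in epileptic sgLacZ libraries. The lowest epileptic value, that of replicate 5, lay among the controls and the other 5 lay above them. The means were 1.23 ± 0.48 CPM (SD, n = 5) and 2.35 ± 0.58 (SD, n = 6), again 1.91-fold apart, with a log2 fold change of 0.93 (SE 0.27, adjusted P = 0.0404 in edgeR). Stat3, the transcription factor between receptor and target, had 42.1 ± 1.96 CPM (SD, n = 5) in control and 46.3 ± 4.14 (SD, n = 6) in epileptic sgLacZ libraries, and the log2 fold change was 0.14 (SE 0.14, adjusted P = 0.508 in edgeR). S1pr3, a receptor for sphingosine-1-phosphate, had a log2 fold change of 0.60 (SE 0.23, adjusted P = 0.0800 in edgeR) and did not pass the threshold. All 6 epileptic libraries lay above the controls, but barely, the lowest at 6.318 and the highest control at 6.313 CPM. The kinase Sphk1, which makes that lipid, had a log2 fold change of -0.42 and the cytokine Clcf1 of -0.08, neither past the threshold.

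The STAT site TTCNNNGAA was searched on both strands in the 250 bases before each listed RefSeq start (GRCm38.p6). A gene can have several starts, and 33 members were found in the promoter table. The site was present for 5 members, of which Socs3 was the only 1 that rose, beside 7.02% of all 32851 promoters and 8.13% of the 27025 genes in the table. No match for Gfap, Osmr or Aldh1l1 says only that these letters are absent from the windows searched. The Socs3 stretch is shown because Socs3 is a member that rose, and those of Steap4 and Emp1 (the first of 2), which did not, for comparison. The stretches of Socs3 and Emp1 lie before an inner start, inside the span of the gene, and that of Steap4 lies ahead of its gene. Capitals mark the site, and each is written 5′ to 3′ on the strand of its gene.

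Socs3, chr11:117969502-117969530, minus strand: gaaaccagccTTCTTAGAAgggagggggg

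Steap4, chr5:7960346-7960374, plus strand: ggttgaactcTTCCCGGAAactttgcttc

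Emp1, chr6:135362801-135362829, plus strand: tacaacagggTTCTTTGAAttgatggctc

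Wider lists were read beside these members. Of 28 tested genes of the interleukin-6 family, JAK and STAT route outside the members (31 listed), 4 were higher and 1 lower in epileptic sgLacZ libraries. Over all 17615 genes tested, 7.26% were higher and 11.0% differed in either direction. Higher were Tyk2, a JAK kinase (log2 fold change 0.94, SE 0.23, adjusted P = 0.0333 in edgeR), Cntfr, the receptor for CNTF (0.87, SE 0.24, adjusted P = 0.0377), Ptpn11, the phosphatase SHP2 (0.52, SE 0.15, adjusted P = 0.0404), and Il6st, which encodes gp130 (0.55, SE 0.16, adjusted P = 0.0423). Socs2, another inhibitor, fell by 0.63 on the log2 scale (SE 0.18, adjusted P = 0.0394 in edgeR). Ptpn11 and Il6st were named after their values were seen, to complete a count of 5. Of these 5 genes, each passed the threshold in 6 to 8 of 10 other settings, with adjusted P between 0.000455 and 0.119. In the 17 fits without 1 library, Tyk2, Cntfr, Socs2, Ptpn11 and Il6st passed 10, 9, 9, 6 and 6 times. The median log2 fold change over the 28 genes was -0.05, with 13 positive and 15 negative. An unadjusted P under 0.05 was found for 9 of them in edgeR, beside 34.7% of all genes. Of the panel genes that are not members, 9 of 10 were tested and none passed; the smallest P was that of Cd14, a co-receptor for bacterial lipid (log2 fold change -0.55, adjusted P = 0.102 in edgeR), and Ugt1a1 had no read in any library.

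Aldh1l1 (ENSMUSG00000030088; chromosome 6, 90550768 to 90599171), a folate enzyme found in astrocytes whether reactive or not, had the smallest rise of the 4. Controls had 33.4, 36.7, 38.7, 39.7 and 41.0 CPM, and epileptic sgLacZ libraries ranged from 40.97 to 52.9 with a median of 49.3. The groups touched, since the lowest epileptic and the highest control value were nearly the same. The means were 37.9 ± 2.95 CPM (SD, n = 5) and 47.7 ± 5.11 (SD, n = 6), and the log2 fold change was 0.33 (SE 0.09, adjusted P = 0.0391 in edgeR). Some Aldh1l1 reads were ambiguous in the unstranded counts, and with both strand counts added, which gave 1.28 times as many reads, its log2 fold change was 0.26 (SE 0.08, adjusted P = 0.0450 in edgeR). The list of 18 homeostatic astrocyte genes gave none past the threshold, with a median log2 fold change of 0.15 and a summed level of 6929 to 7852 CPM in control and 7032 to 7978 in epileptic sgLacZ libraries. Its smallest P was that of Acsbg1, an acyl-CoA synthetase (log2 fold change 0.65, SE 0.21, adjusted P = 0.0512 in edgeR). Among the other enzymes and transporters, the asparaginase Aspg (0.50), the channel Aqp9 (0.45), Ggta1 (0.26) and B3gnt5 (-0.25) had log2 fold changes that did not pass.

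**Figure D2:**
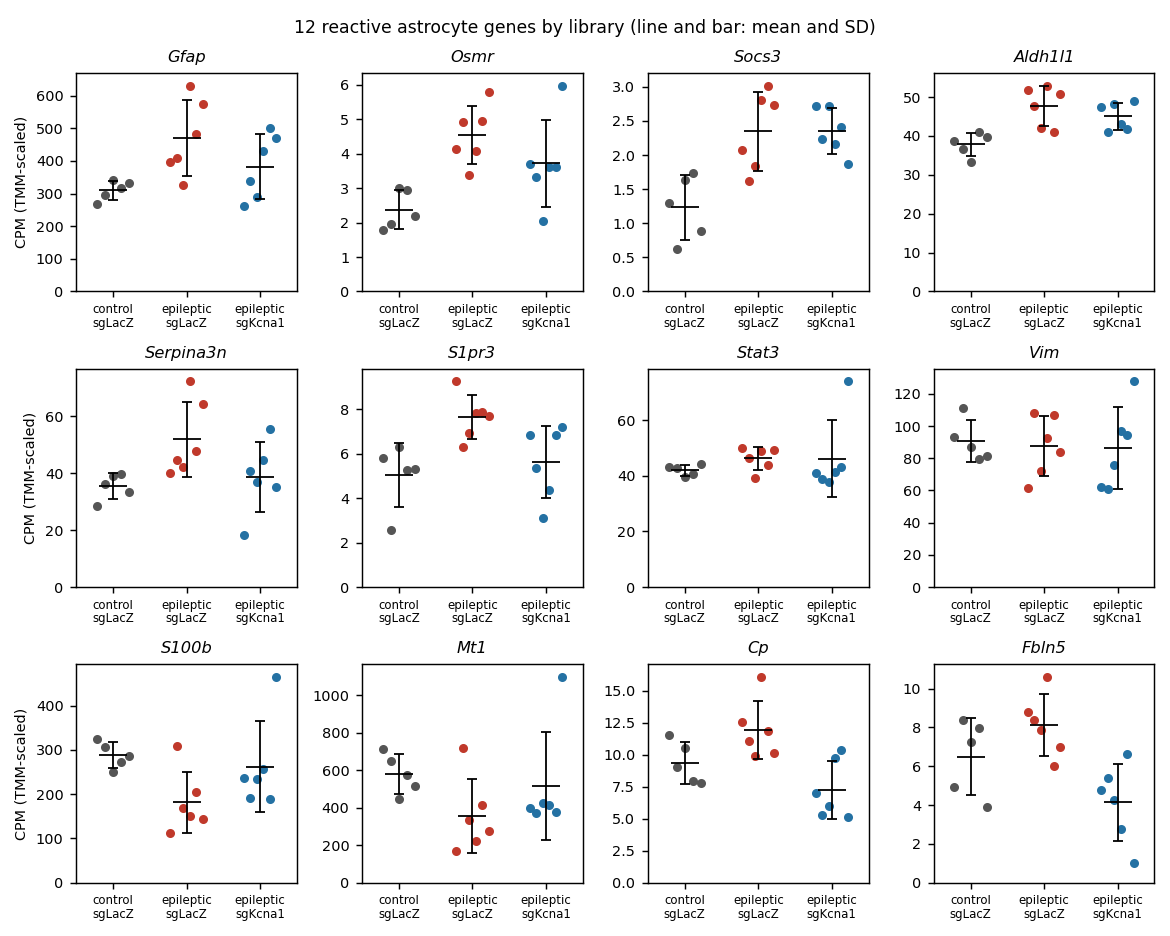
CPM (y axis, from 0) of 12 members in each of the 17 libraries (points), by group (x axis), with the mean and SD of each group in black. The epileptic sgLacZ libraries lie above every control for Osmr, Serpina3n and, nearly touching, S1pr3, whereas S100b and Mt1 lie mostly below the controls, and 1 epileptic sgKcna1 library is far above the rest for S100b, Mt1 and Stat3.

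None of the 7 acute-phase, protease inhibitor and metal-handling members passed the threshold, though 6 had a positive log2 fold change. Serpina3n, a serine protease inhibitor strongly raised in reactive astrocytes, had 28.5 to 39.6 CPM in controls and 40.2 to 72.3 in epileptic sgLacZ libraries. All 6 epileptic libraries lay above every control, and the means were 35.4 ± 4.61 CPM (SD, n = 5) and 51.9 ± 13.1 (SD, n = 6). The log2 fold change of 0.55 (SE 0.21) missed the threshold (adjusted P = 0.0806 in edgeR). Lcn2 had a log2 fold change of 0.34 with an SE of 0.78, and Timp1 and Steap4, also low, of 0.24 (SE 0.58) and 0.17 (SE 0.63). The pentraxin Ptx3 had -0.64 (SE 0.36), the complement inhibitor Serping1 0.20 and the copper oxidase Cp 0.35 (SE 0.20). With Osmr and S1pr3, Serpina3n made up the 3 of 36 members whose epileptic sgLacZ and control values did not overlap, beside 4.39% of all genes tested. For S1pr3 the groups nearly touched.

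Surface and matrix members gave no call, and 6 of the 8 had negative log2 fold changes. Cd44, the hyaluronan receptor, had 8.91 ± 1.96 CPM (SD, n = 5) in control and 7.97 ± 3.05 (SD, n = 6) in epileptic sgLacZ libraries, and the log2 fold change was -0.16 (SE 0.37, adjusted P = 0.779 in edgeR). Tm4sf1, a membrane protein also made by endothelial cells, had -0.40 (SE 0.18, adjusted P = 0.125 in edgeR) and the galectin Lgals3 -0.50 (SE 0.34). Cd109, Srgn and Thbs1 lay between -0.37 and -0.22, Emp1 was at 0.03 and Fbln5 at 0.32. By panel, 9 of 12 pan-reactive members had a positive and 7 of 8 tested A2 members a negative log2 fold change, with medians of 0.34 and -0.38, and 4 of 5 A1 members were positive (median 0.24). Over all genes tested, 51.95% were positive. In other settings the sign turned at least once for Vim, Timp1, Lcn2, Steap4, Cd44 and Hspb1 (pan-reactive), Clcf1 and Emp1 (A2) and Fbln5 (A1). Among the panel members, 2 pan-reactive ones (Gfap and Osmr) and no A1 or A2 member passed the threshold, and the difference between panels was not tested.

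S100 proteins and metallothioneins had lower means in epileptic sgLacZ libraries, and none of them passed the threshold in edgeR with all libraries. S100b (ENSMUSG00000033208; chromosome 10, 76253836 to 76261319) had 249, 274, 287, 306 and 325 CPM in controls. In epileptic sgLacZ libraries it ranged from 111 to 309 with a median of 159. Replicate 5, at 309, lay among the controls and the other 5, at 111 to 204, lay below all of them. The log2 fold change was -0.67 (SE 0.24, adjusted P = 0.0656 in edgeR) with all libraries and -0.89 (adjusted P = 0.00632) without replicate 5. It passed in 3 of 10 other settings, namely DESeq2 (adjusted P = 0.0370), voom (adjusted P = 0.000400) and the fit of the compared groups alone. S100a10, the annexin partner, and S100a6 had log2 fold changes of -0.43 (SE 0.23) and -0.27 (SE 0.39). Oligodendrocytes also make S100b, and 5 of their markers summed to 3005 to 4168 CPM in epileptic sgLacZ against 3171 to 4999 in control libraries. None of the 5 passed the threshold and 4 were negative, the smallest P being that of Mog, a myelin protein (log2 fold change -0.27, SE 0.21, adjusted P = 0.383 in edgeR). Their part in the result was not tested.

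Mt1 (ENSMUSG00000031765; chromosome 8, 94178883 to 94180327) had 446, 514, 575, 649 and 714 CPM in controls and 171 to 720.2 CPM, with a median of 304, in epileptic sgLacZ libraries. Here too replicate 5 had the highest value, above every control, and the other 5 lay between 171 and 412, below all controls. The log2 fold change was -0.71 (SE 0.33, adjusted P = 0.136 in edgeR), and -1.04 (adjusted P = 0.0132) without replicate 5. Mt1 and Mt2 passed with voom (adjusted P = 0.000714 and 0.000427) and not with DESeq2 (adjusted P = 0.0929 and 0.139). Most Mt2 reads were ambiguous in the unstranded counts, since adding the strand counts gave 17.3 times as many. On that sum Mt2 had 277 ± 48.1 CPM (SD, n = 5) in control and 175 ± 88.1 (SD, n = 6) in epileptic sgLacZ libraries, and the log2 fold change was -0.67 (SE 0.27, adjusted P = 0.0815 in edgeR), against -1.29 (SE 0.59) on the unstranded counts. The level and the fold change of Mt2 are therefore uncertain.

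The metal response cores TGCACNC and TGCGCNC were present in the 250 bases before a listed start for 8 of 33 members, beside 21.4% of all promoters and 23.8% of all genes in the table. Mt2 was the only member with 3, and 1.26% of all promoters and 1.46% of all genes held 3 or more. The stretches of Mt1 and Mt2 are shown because both genes were highest of their group in epileptic sgLacZ replicate 5 and epileptic sgKcna1 replicate 12. The Mt1 stretch lies before an inner start, inside the span of the gene given above. Capitals mark the core, which in the second Mt2 stretch lies on the other strand.

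Mt1, chr8:94179056-94179082, plus strand: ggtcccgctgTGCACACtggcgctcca

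Mt2, chr8:94172385-94172411, plus strand: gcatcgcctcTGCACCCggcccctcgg

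Mt2, chr8:94172558-94172584, plus strand: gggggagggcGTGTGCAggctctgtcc

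Mt2, chr8:94172480-94172506, plus strand: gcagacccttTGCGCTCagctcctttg

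Of 15 glucocorticoid and metal response genes that are not members, 1 was lower in epileptic sgLacZ libraries and none higher. Over all genes tested, 11.0% differed in either direction. Klf9, a transcription factor induced by glucocorticoids, ranged from 380.02 to 429.7 CPM in control and from 217.7 to 389.9 in epileptic sgLacZ libraries (log2 fold change -0.54, SE 0.17, adjusted P = 0.0477 in edgeR). It passed in 6 of 10 other settings and in 4 of the 17 fits without 1 library. Fkbp5, a member of the A1 panel and a well-known glucocorticoid target, had a log2 fold change of 0.24 (SE 0.12, adjusted P = 0.159 in edgeR). The heat shock protein Hspb1 had -0.31 (SE 0.21).

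These short genes share a feature with the rest of the data. Over the 15794 tested genes with a known exon length (89.7% of those tested), the median log2 fold change of epileptic sgLacZ against control rose with exon length, from -0.55 for the 1324 genes under 1 kilobase to -0.18, 0.04, 0.17 and 0.20 in the classes from 1 to 2, 2 to 4, 4 to 8 and over 8 kilobases. Mt1 (753 bases) lay 0.15 below the median of its class and S100b (1484 bases) 0.49 below it, while S100a6 (719 bases) lay 0.28 above. Gfap (4218 bases), Osmr (4835 bases), Socs3 (2891 bases) and Aldh1l1 (4512 bases) lay 0.43, 0.76, 0.90 and 0.16 above the medians of their classes. When the trend with length was taken out of each library, Osmr and Socs3 passed the threshold, with log2 fold changes of 0.80 and 0.90 (adjusted P = 0.0474 and 0.0416 in edgeR), and Gfap and Aldh1l1, with 0.48 and 0.20, did not (adjusted P = 0.0803 and 0.140). The share of unmapped reads moved with the short members at the extremes: it was 11.0% in epileptic sgLacZ replicate 4, which had the lowest S100b and Mt1 of all 17 libraries, and 41.5% in epileptic sgKcna1 replicate 12, which had the highest. With that share as a covariate the log2 fold changes of S100b and Mt1 were -0.36 and -0.30 (adjusted P = 0.0789 and 0.208 in edgeR). Beyond these fits, the part of length and of unmapped reads in these values was not tested.

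**Figure D3:**
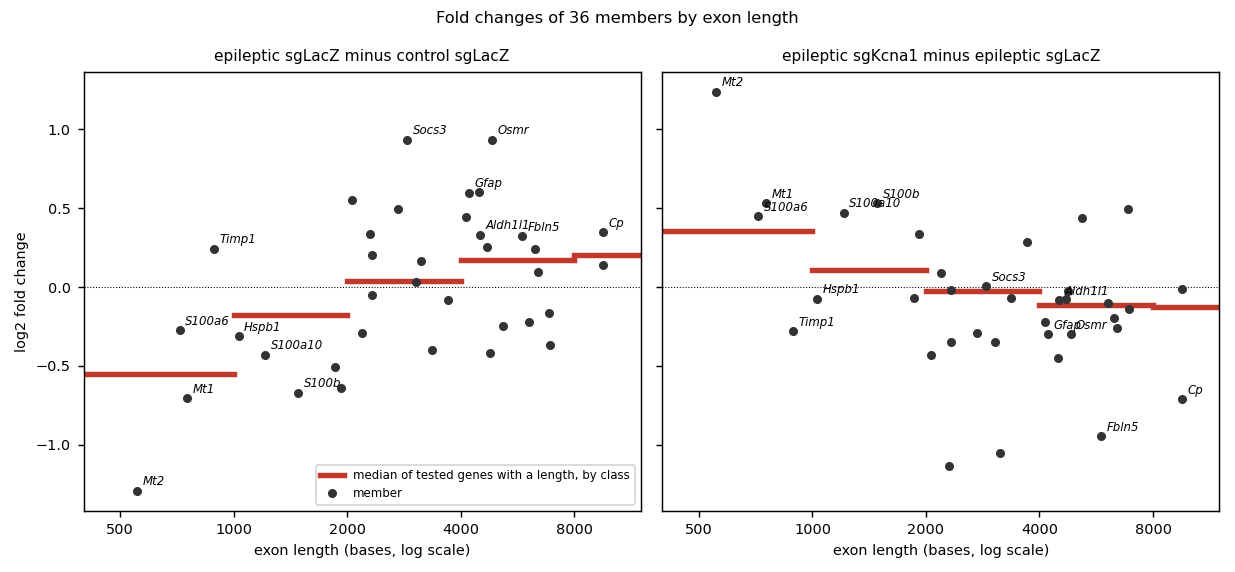
Log2 fold change (y axis) against exon length (x axis, log scale) for the 36 members (points) and the median of the tested genes with a known length in each of 5 length classes (red bars), for 2 comparisons. In the first panel the bars climb from -0.55 to 0.20 and Gfap, Osmr and Socs3 lie above their bars; in the second they descend from 0.36 to -0.13.

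The 4 calls depended on single libraries. Without epileptic sgLacZ replicate 4, 7 or 9 or control replicate 13, 14, 16 or 23 no member passed, without epileptic sgLacZ replicate 5 there were 12 (6 higher and 6 lower, S100b, Mt1, Mt2, S100a10, Tm4sf1 and Srgn being the lower ones), without epileptic sgLacZ replicate 8 or epileptic sgKcna1 replicate 10 there were 2, without control replicate 15 there was 1 and without epileptic sgKcna1 replicate 12 there were 7. These counts mostly moved with those over all genes: no gene at all passed in the 7 fits with no member. Without epileptic sgLacZ replicate 5, 31.3% of all genes passed beside 33.3% of the members. Without epileptic sgKcna1 replicates 12 and 10 and control replicate 15, 27.1%, 5.83% and 2.90% passed beside 19.4%, 5.56% and 2.78%. They parted without epileptic sgLacZ replicate 8 (13.6% of all genes beside 5.56% of the members) and replicate 6 (5.44% beside 11.1%). Gfap, Osmr, Socs3 and Aldh1l1 passed in 5, 10, 7 and 9 of these 17 fits and in 6, 8, 6 and 5 of 10 other settings, always as a rise, with adjusted P up to 0.112, 0.0947, 0.103 and 0.140. Without the 6 libraries with reads of both sexes, or with Xist as a covariate, no member and no other gene passed. With the covariate the log2 fold changes of Gfap, Osmr, Socs3 and Aldh1l1 were 0.56, 0.88, 0.98 and 0.30.

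Whether reactive genes differ once sgKcna1 is given was asked by comparing epileptic sgKcna1 with epileptic sgLacZ libraries. No member passed the threshold (0 of 36 by edgeR; 0% of all genes tested), 6 had an unadjusted P under 0.05 beside 19.2% of all genes, and DESeq2 called 1, Cp, beside 0.702% of all genes. The groups overlapped for every member, beside 0.483% of all genes for which they did not. The median log2 fold change was -0.08 over the members, with 11 positive and 25 negative, and -0.01 over all genes. The 3 members with the smallest P were Cp, Fbln5 and S100b.

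Cp (ENSMUSG00000003617; chromosome 3, 19956933 to 20009750), ceruloplasmin, which oxidizes iron and carries copper, ranged from 9.88 to 16.1 CPM with a median of 11.4 in epileptic sgLacZ libraries. In epileptic sgKcna1 libraries it ranged from 5.13 to 10.4 with a median of 6.52, and controls had 7.78, 7.93, 9.03, 10.5 and 11.5 CPM. The treated libraries were mostly the lowest of the 3 groups, with an overlap at the top. The log2 fold change was -0.71 (SE 0.19, adjusted P = 0.213 in edgeR), a ratio of 0.611, and adjusted P ranged from 0.0437 to 0.514 over 10 other settings. Fbln5 (ENSMUSG00000021186; chromosome 12, 101746565 to 101819119), fibulin 5, an elastic fibre protein, ranged from 5.99 to 10.6 CPM with a median of 8.13 in epileptic sgLacZ and from 1.03 to 6.62 with a median of 4.53 in epileptic sgKcna1 libraries. Controls had 3.89, 4.92, 7.28, 8.00 and 8.37 CPM, overlapping both epileptic groups, which also overlapped each other. The log2 fold change was -0.95 (SE 0.30, adjusted P = 0.213 in edgeR), and -0.77 (SE 0.23) without replicate 12, the lowest.

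Choroid plexus and the vessel wall also make Cp and Fbln5. The 6 choroid plexus markers summed to 292 to 7832 CPM in epileptic sgKcna1, 4426 to 11460 in epileptic sgLacZ and 1201 to 12530 in control libraries, all 6 with negative log2 fold changes in treated mice (median -1.01, none past the threshold). The 10 mural and fibroblast markers summed to 109 to 311, 180 to 244 and 139 to 272 CPM, with 8 of 9 tested negative and a median of -0.23. The part of these cells in the values of Cp and Fbln5 was not tested.

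S100b and the metallothioneins had higher means in treated than in epileptic sgLacZ libraries. S100b ranged from 189 to 466 CPM with a median of 235, the highest being replicate 12. The log2 fold change was 0.53 (SE 0.23, adjusted P = 0.234 in edgeR), 0.29 (adjusted P = 0.450) without replicate 12 and 0.09 with the share of unmapped reads as a covariate. Without epileptic sgLacZ replicate 5 it was 0.75 and passed (adjusted P = 0.0425 in edgeR), as did Cp and Mt2, beside 8.54% of all genes. Mt1 had 0.53 (SE 0.32), which was 0.16 without replicate 12, whose 1099 CPM stood against 373 to 426 in the other 5. It turned to -0.076 with the share of unmapped reads as a covariate and was 0.86 (adjusted P = 0.0550 in edgeR) without epileptic sgLacZ replicate 5. On summed strand counts Mt2 had 0.36 (SE 0.26, adjusted P = 0.400 in edgeR). Over the genes with a known length the trend ran the other way from that above, from a median of 0.36 under 1 kilobase to -0.13 over 8 kilobases.

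The 4 members that rose with epilepsy lay between control and epileptic sgLacZ levels in treated mice or stayed with the latter, and none of these differences passed the threshold. Gfap had 382 ± 99.1 CPM (SD, n = 6), from 262 to 500.2, and a log2 fold change of -0.30 against epileptic sgLacZ (SE 0.17, adjusted P = 0.319 in edgeR) and of 0.30 against control (SE 0.18, adjusted P = 0.766). Osmr had 3.71 ± 1.27 CPM (SD, n = 6), with log2 fold changes of -0.30 (SE 0.22) and 0.63 (SE 0.24). Socs3 had 2.35 ± 0.34 CPM (SD, n = 6), with 0.01 (SE 0.24) and 0.94 (SE 0.27). Aldh1l1 had 45.1 ± 3.47 CPM (SD, n = 6), with -0.08 (SE 0.09) and 0.25 (SE 0.09). Serpina3n, which had not passed, had 38.6 ± 12.2 CPM (SD, n = 6), with -0.43 (SE 0.20, adjusted P = 0.255 in edgeR) and 0.12 (SE 0.21). The comparisons share the epileptic sgLacZ or the control libraries, so a value in those enters both.

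**Figure D4:**
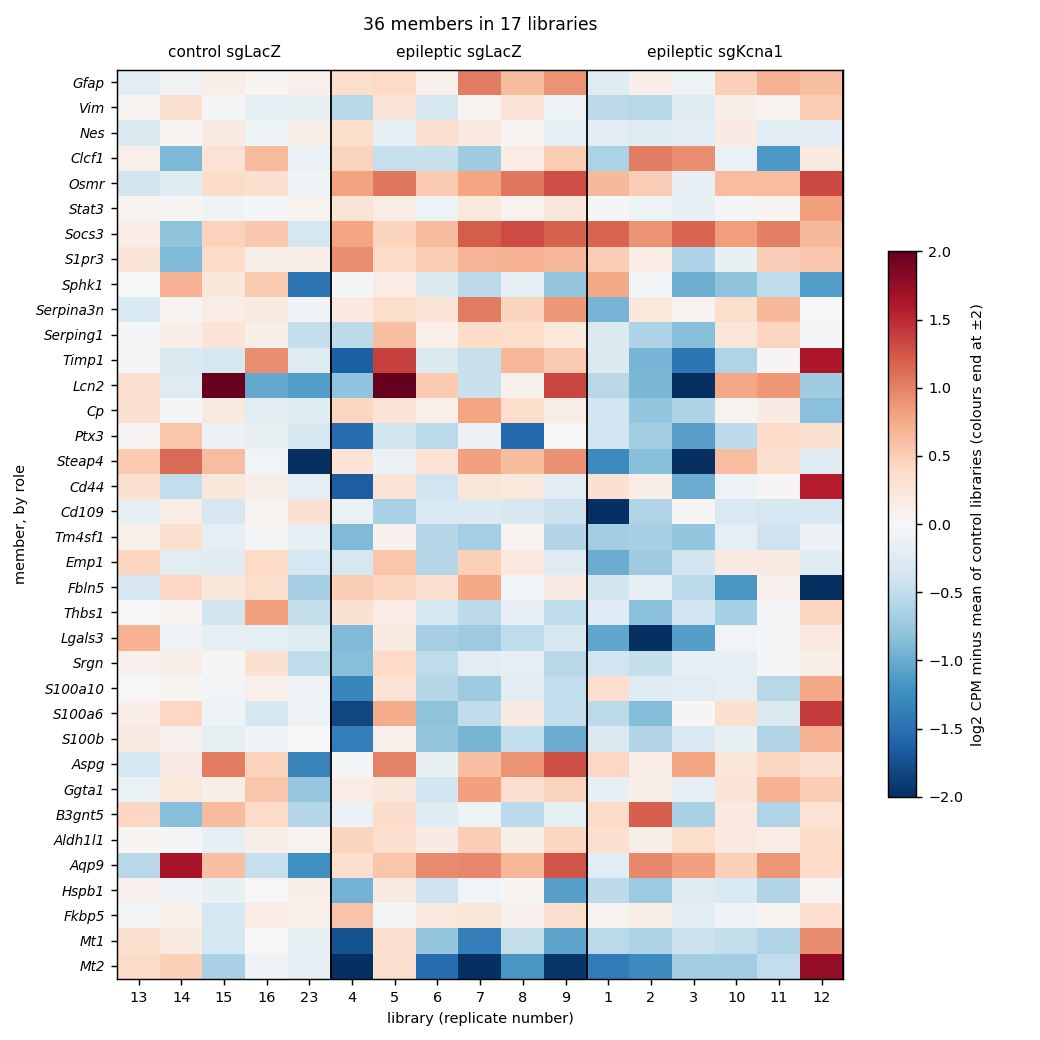
Log2 CPM (prior count 2) minus the mean of the 5 control libraries for the 36 members (rows, by role) in the 17 libraries (columns, by group and replicate number); red is higher and blue lower. Socs3 is red in all 12 epileptic libraries, and Mt1 and Mt2 are blue in all of them except epileptic sgLacZ replicate 5 and epileptic sgKcna1 replicate 12.

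Treated epileptic mice were also compared with control mice. No member passed the threshold (0 of 36 by edgeR; 0% of all genes tested; 0 by DESeq2), and 4 had an unadjusted P under 0.05 beside 6.77% of all genes: Socs3, Aldh1l1 and Osmr, higher, and Tm4sf1, lower (log2 fold change -0.47, SE 0.18). Epileptic sgKcna1 libraries ranged from 1.87 to 2.72 CPM of Socs3 with a median of 2.33 and from 41.1 to 48.9 CPM of Aldh1l1 with a median of 45.3. For these 2 members all 6 treated libraries lay above every control, beside 1.14% of all genes whose values did not overlap. For Aldh1l1 this was lost on summed strand counts, where the lowest treated library had 53.5 and the highest control 54.3 CPM. Osmr ranged from 2.06 to 5.97 CPM with a median of 3.62, the lowest inside the range of the controls. Their adjusted P in the edgeR fit were 0.512, 0.674 and 0.674. The median log2 fold change was -0.06 over the members and 0.02 over all genes. Stat3 had 46.1 ± 13.8 CPM (SD, n = 6) in treated libraries, of which replicate 12 had 74.1 and the other 5 between 37.9 and 43.2.

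Marker lists of other cells were read beside these results. In epileptic sgLacZ against control, 1 of 11 microglia markers was higher, Csf1r (log2 fold change 0.38, SE 0.10, adjusted P = 0.0356 in edgeR), whose summed strand counts were 1.37 times the unstranded ones and which passed in 5 of 10 other settings (log2 fold change down to 0.087, adjusted P up to 0.469), and the list summed to 406 to 727 against 486 to 540.3 CPM. Of 8 neuron markers 1 was higher, Slc17a7, the vesicular glutamate transporter (0.77, SE 0.21, adjusted P = 0.0366 in edgeR), and of 4 ependymal markers 1 was lower, Tmem212 (-1.23, SE 0.37, adjusted P = 0.0449 in edgeR). Slc17a7 and Tmem212 passed in 7 and 6 of 10 other settings (adjusted P up to 0.0781 and 0.0991). In the 17 fits without 1 library, Csf1r, Slc17a7 and Tmem212 passed 9, 9 and 5 times. Over all genes tested, 11.0% passed in either direction. No marker of blood-derived myeloid cells (5 of 6 tested, smallest P Cd68), oligodendrocyte precursors (4, Olig2), endothelium (6, Tek), mural cells and fibroblasts (9 of 10, Myh11) or choroid plexus (6, Aqp1) passed. All 6 choroid plexus markers were positive in this comparison, with a median log2 fold change of 0.87. No listed marker of the tissue's main cell types was without reads, and the neuron markers summed to 6760 to 8972 CPM over all 17 libraries.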

How the data were processed

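Hippocampal polyadenylated RNA was sequenced, 1 library per sample. The authors aligned reads to mm10 with STAR 2.7 and deposited raw counts per gene, for either strand and for each strand, not normalized. Reads mapping to several places are left out. The labels name an unstranded and the methods a stranded kit; reverse-strand to forward-strand reads were 0.994 to 0.998, so unstranded counts were used. Libraries of a group differed beyond sampling noise (chi-square per degree of freedom 8.67 to 220.2).

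Counts were analysed with edgeR 4.0.16 (R 4.3.3): filterByExpr, TMM, a single fit of 17 libraries and 3 groups without covariate, two-sided quasi-likelihood F tests, Benjamini-Hochberg over 17615 genes, threshold 0.05. The study used DESeq2 (1.42.0 here), an alternative with limma's voom (3.58.1). The code was tested on simulated data. The labels do not say that libraries are separate animals, so P-values measure only the spread between these libraries. Exon lengths came from the mm9 annotation, positions and promoters from RefSeq GRCm38.p6.

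The 38 members and all lists were chosen with earlier results of these data known. Named are the members called in epileptic sgLacZ, 10 in any case (the 4 called among them), and the 3 with the smallest P in each other contrast; values per library are given for the 3 with the smallest P per contrast and Gfap; of each other list, up to 3 called genes or that with the smallest P. Other members are named in the account of their role. One listed marker gene is not reported here.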

Additional observations from a re-analysis of the deposited data

Results flagged for a closer look

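Of 108 pairs of a member and a group, 14 held a library whose gap to the others exceeded Dixon's critical value, where chance gives about 1 in 20. Of these, 7 were in epileptic sgKcna1 replicate 12, the shallowest library and that with the most unmapped reads: Stat3 at 74.1 CPM, Timp1 at 3.08, Cd44 at 26.2, S100a6 at 69.4, S100b at 466, Mt1 at 1099 and Mt2 at 58.8, each the highest of its group. Mt2 was also highest in epileptic sgLacZ replicate 5, at 21.7 CPM against 1.74 to 7.72 in the other 5.

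In the control group, S1pr3 was lowest in replicate 14, at 2.58 CPM, Timp1 highest in replicate 16, at 1.87, Lcn2 highest in replicate 15, at 1.84, and Lgals3 highest in replicate 13, at 7.36. In epileptic sgKcna1, Nes was highest in replicate 10, at 10.0 CPM, and Aspg in replicate 3, at 2.61.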

How the results depend on the processing

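The 4 members called in epileptic sgLacZ against control became 2 with no filter on low counts, 14 with voom and sample quality weights (7 higher and 7 lower), 1 with the share of unmapped reads as a covariate and 0 with Xist as a covariate, and the count ranged from 0 to 12 over the 17 fits without 1 library. The shares of all genes moved alike in these 4 settings, at 4.53%, 41.4%, 2.43% and 0%. Without 1 library they ranged from 0% to 31.3% and did not always move with the members. With alternatives chosen after seeing the data, the count of members was 2 with the length trend removed (5.56% beside 9.40% of all genes). It was 0 without the 6 libraries with reads of both sexes, where no gene passed. Other size factors, summed strand counts, DESeq2 and a fit of the compared groups alone gave 4 to 6. Their shares of the members were 11.1%, 11.1%, 13.9% and 17.6%, beside 10.6%, 14.2%, 18.8% and 17.9% of all genes. In treated against epileptic sgLacZ mice, DESeq2 called 1 member, the fits without 1 library 0 to 3 (3 without epileptic sgLacZ replicate 5), and every other setting 0. Against control, all 27 alternatives gave 0.

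In settings that keep the groups' libraries or drop those with reads of both sexes, the sign turned at least once for 12 of 36 members in epileptic sgLacZ against control, 15 in treated against epileptic sgLacZ mice and 10 in treated against control mice. None of the 4 called members was among the 12. Of the 10 members named in any case in the first comparison, it turned for 4. Vim was 0.17 and Cd44 0.15 with the share of unmapped reads as a covariate, Stat3 -0.043 with the length trend removed and Lcn2 -0.10 without the libraries with reads of both sexes. Without 1 library, Vim ranged from -0.12 to 0.034, Cd44 from -0.27 to 0.017 and Lcn2 from -0.29 to 1.4997. The causes were not tested. Lcn2 failed the filter in the fit of the compared groups alone and has no value there. No paired analysis was possible because the groups share no replicate numbers. Low reads limit Lcn2, Steap4, Clcf1, Tgm1 and Slc10a6 most.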
